A study of Homo sapiens with 4 samples.

Results

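The comparison set 2 oesophageal squamous cell carcinoma lines, KYSE-450 and KYSE-520, against 2 others, KYSE-890 and KYSE-960, by their microRNA profiles. Each line was hybridized to 1 array of human microRNA probes. All 4 are established lines cultured from human tumours, and each was grown in the same medium with 5% foetal bovine serum. The labels name no treatment and no normal oesophageal cells. The labels name 4 single lines and do not pair them. They were paired here because earlier results of the same arrays had shown KYSE-450 and KYSE-520 to be alike, and KYSE-890 and KYSE-960 to be alike. A separation between the pairs is therefore partly built into the choice, and what follows is a description with no p-value.

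Features were kept when their intensity lay above background on 1 or more arrays, which left 163 of the 856 features on the chip. Background was set on each array at its median plus 3 times the distance from the median down to the 16th percentile, a stand-in for an SD taken from the dim side. This threshold was 138 intensity units on the KYSE-450 array and 150.0 on that of KYSE-520, against 128.5 on the KYSE-890 array and 130.0 on that of KYSE-960. The 3 brightest features left out reached 148 and 148.5 in KYSE-520, with 1 at 127 in KYSE-890. The 3 dimmest kept reached 131.5 and 132.5 in KYSE-960, with 1 at 129.5 in KYSE-890. A feature was called higher in one pair when both of its arrays exceeded both arrays of the other pair. The distance between the lower array of the higher pair and the higher array of the lower pair is called the gap and is given as a fold.

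MicroRNAs are short RNAs that guide Argonaute proteins to messenger RNAs and repress them, mostly through pairing of the bases near the 5′ end of the microRNA, the seed. In squamous epithelium they take part in the choice between proliferation and differentiation. Each feature carries the miRBase accession of a mature microRNA, a MIMAT number, and the files do not pair these numbers with names. None of the 856 accessions was found in the gene table or the microRNA sequence table at hand (0 matches in each), and features are identified by accession, without name, sequence, family or genomic position. For the same reason the squamous and columnar epithelial markers and the markers of blood, connective tissue, endothelium, muscle, nerve and embryonic cells could not be looked up, and the labelled cell type was not checked against them. A list of former microRNA names that stem from other small RNAs could not be matched either. Whether any feature, including those singled out below, is of that kind was therefore not checked.

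Which pair had more of the higher features depended on how the arrays were scaled. After quantile normalization, which gives all 4 arrays the same set of values, both KYSE-450 and KYSE-520 exceeded the other pair for 64 of 163 kept features (39.3%). Another 53 (32.5%) were higher in both KYSE-890 and KYSE-960, and 46 were higher in neither pair. In the deposited intensities, 102 features (62.6%) were higher in both KYSE-450 and KYSE-520, against 11 (6.75%) higher in both KYSE-890 and KYSE-960, and 50 were higher in neither. With the medians of the 75 features above background on all 4 arrays set equal, the order turned, to 48 features higher in KYSE-450 and KYSE-520, against 75 higher in KYSE-890 and KYSE-960. All of these counts use the same 163 features, with values under a common floor raised to it. Without KYSE-520 the normalized counts were 56 and 58 of the 137 features then kept. The filter itself favours 1 direction, since a feature kept only through 1 pair was at background on both arrays of the other. Such a feature did not have to be called higher, as the rule asks this of both arrays of its pair. Of the kept features 52 were above background only on arrays of KYSE-450 or KYSE-520, against 12 only on arrays of KYSE-890 or KYSE-960, and these supplied 37 of the 64 features and 8 of the 53.

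Nearly all features that normalization placed higher in KYSE-450 and KYSE-520 had that direction before it. Most of those it placed higher in KYSE-890 and KYSE-960 did not. Of the 64 features higher in KYSE-450 and KYSE-520 after normalization, 62 were also so in the deposited values, which is 38% of all kept features, and the remaining 2 separated in neither direction there. Of the 53 higher in KYSE-890 and KYSE-960 after normalization, 10 were also so in the deposited values, or 6.13% of all kept features. Another 29 of the 53 did not separate in the deposited values, and 14 were higher in KYSE-450 and KYSE-520. No feature turned from KYSE-450 and KYSE-520 after normalization to KYSE-890 and KYSE-960 before it. Counted from the deposited side, the better kept direction was the other one. Of the 102 features separated towards KYSE-450 and KYSE-520 as deposited, 62 kept that direction after normalization, 26 no longer separated and 14 turned. Of the 11 towards KYSE-890 and KYSE-960, 10 kept theirs. Without KYSE-520 the count of 10 became 28 of the 137 features then kept, and without KYSE-960 it became 27 of 158. A pair is then held by a single array.

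**Figure D1:**
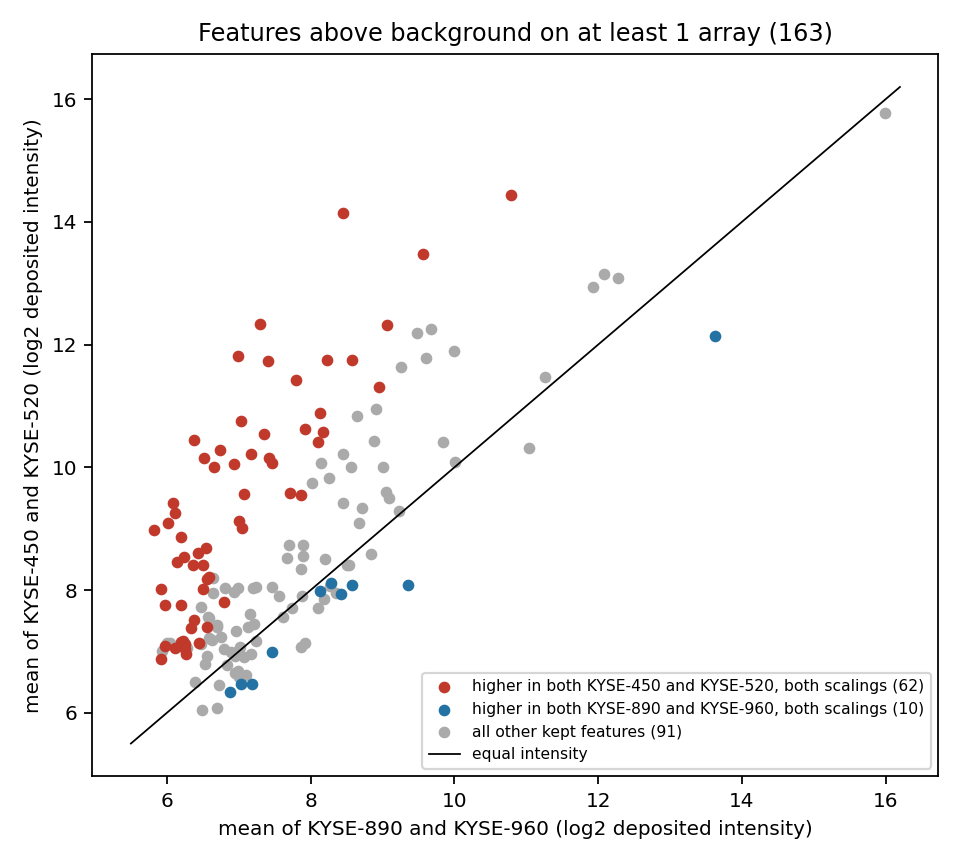
Mean log2 deposited intensity of KYSE-450 and KYSE-520 (vertical axis) against that of KYSE-890 and KYSE-960 (horizontal axis) for the 163 kept features, 1 point a feature. The 62 features higher in both KYSE-450 and KYSE-520 under both scalings lie above the line of equal intensity, many of them at the dim left edge, and the 10 higher in both KYSE-890 and KYSE-960 lie below it.

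Features above background were brighter as a whole on the arrays of KYSE-450 and KYSE-520. Over the 163 features, the mean of KYSE-450 and KYSE-520 minus the mean of KYSE-890 and KYSE-960 had a median of 0.81 log2 in the deposited values and 0.24 log2 after normalization. The difference was positive for 128 features and negative for 35 in the deposited values, against 90 positive and 72 negative after normalization, with 1 at exactly 0. Over the 75 features above background on all 4 arrays the median was 0.85 log2 in the deposited values and -0.57 log2 after normalization. Among those 75, 47 were higher in KYSE-450 and KYSE-520, against 7 higher in KYSE-890 and KYSE-960, in the deposited values, whereas normalization gave 18 and 38. Only 18 and 6 of the 75 separated the same way under both scalings. The normalized median turned to -0.14 log2 without KYSE-520, over the 137 features then kept. Over the 163 features it turned to -0.13 log2 when the medians of the 75 features were set equal instead. With 1 array a line, the brightness of an array and the amount of microRNA in its line cannot be told apart.

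**Figure D2:**
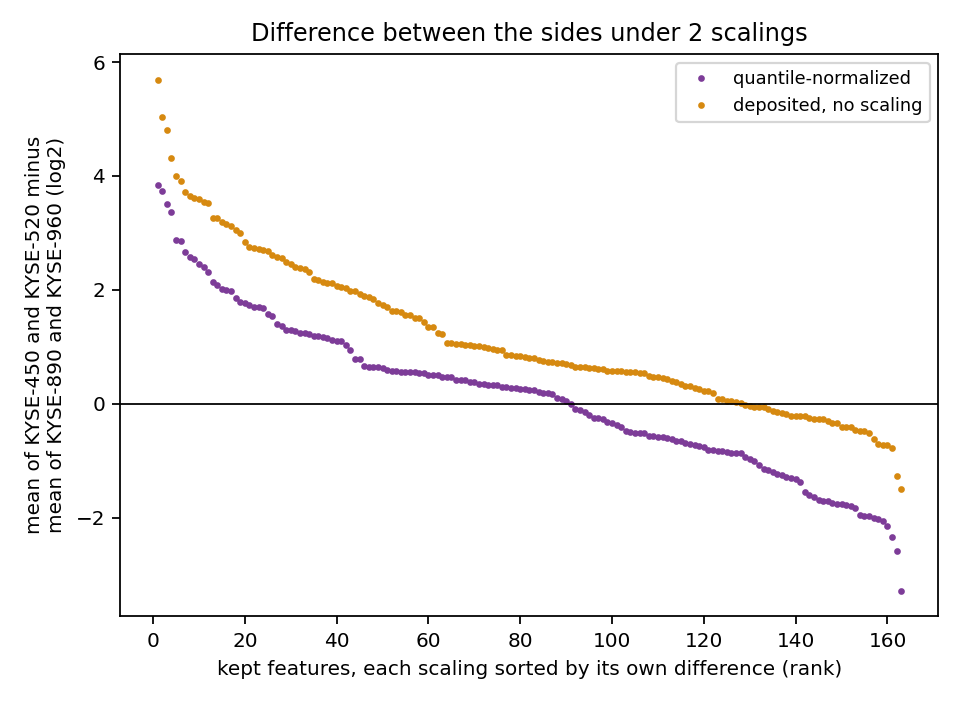
Difference between the pairs, as the mean of KYSE-450 and KYSE-520 minus the mean of KYSE-890 and KYSE-960 (log2, vertical axis), for the 163 kept features sorted by size within each scaling (horizontal axis). The deposited values lie above the normalized ones along the whole curve, with medians of 0.81 and 0.24.

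The direction with the wider gaps also changed with the processing. After normalization 27 features (16.6% of those kept) had a gap of at least 2-fold towards KYSE-450 and KYSE-520, 9 of at least 4-fold and 1 of at least 8-fold. Towards KYSE-890 and KYSE-960, 23 features (14.1%) had a gap of at least 2-fold, 1 of at least 4-fold and 0 of at least 8-fold. Without KYSE-960 the count at 2-fold was 36 of the 158 features then kept, against 34 in the other direction. With the background threshold as floor, 14 features had a 2-fold gap towards KYSE-450 and KYSE-520, against 22 towards KYSE-890 and KYSE-960, and with the medians of the 75 features set equal 16 did, against 20. In the deposited values, 53 features (32.5%) had a gap of at least 2-fold towards KYSE-450 and KYSE-520, and 24 and 11 had one of at least 4-fold and 8-fold. None reached 2-fold towards KYSE-890 and KYSE-960 (0 of 163), where the widest gap was 1.39-fold. The median gap of the separated features was 2.39-fold towards KYSE-450 and KYSE-520, against 1.22-fold towards KYSE-890 and KYSE-960 in the deposited values, and 1.87-fold and 1.74-fold after normalization.

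Differences between the pairs tended to be larger than those within them. That is partly built in, since the lines were paired because earlier results of these arrays showed them to be alike. After normalization the median absolute difference was 0.36 log2 between KYSE-450 and KYSE-520 and 0.45 log2 between KYSE-890 and KYSE-960, against 0.85 log2 between the pairs. For 95 of the 163 features the difference between the pairs exceeded both differences within them, and in the deposited values this held for 88. Within a pair the 2 arrays are of different lines, so these differences hold both line and array error, and no array was repeated to separate them. In the deposited values KYSE-520 lay above KYSE-450 by a median of 0.52 log2, and KYSE-890 above KYSE-960 by 0.06 log2.

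Many of the 62 features higher in KYSE-450 and KYSE-520 under both scalings were at background in the other pair, and some were bright in KYSE-450 and KYSE-520. These were mostly different features. Of the 62, 50 were above background in KYSE-450 and 60 in KYSE-520, against 23 in KYSE-890 and 22 in KYSE-960. Their median deposited intensity was 431 on the KYSE-450 array and 774 on that of KYSE-520, against 101 on the KYSE-890 array and 92.5 on that of KYSE-960. Intensities of 1000 or more were reached by 21 of them on the KYSE-450 array and by 28 on that of KYSE-520, against 1 on the KYSE-890 array and 1 on that of KYSE-960. Together the 62 made up 32.7% of the summed intensity of KYSE-450 and 40% of that of KYSE-520, against 5.64% in KYSE-890 and 6.34% in KYSE-960.

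For 35 of the 62, neither KYSE-890 nor KYSE-960 was above background, so their folds are lower bounds. A bound was taken from the mean of KYSE-450 and KYSE-520 over, on each array of the other pair, the higher of the feature's own value and the dimmest value above background. In the deposited values 16 of the 35 were at least 2-fold higher in KYSE-450 and KYSE-520, up to at least 10.7-fold, and 2 had a bound under 1 and so no fold. After normalization 6 had a bound of at least 2-fold, up to at least 4.60-fold, and 17 had a bound under 1. A further 99 of the 163 kept features were above background on arrays of both pairs. Of the 23 above background in exactly KYSE-450 and KYSE-520, 21 were among the 62, as were 12 of the 26 above background in KYSE-520 alone and 2 of the 3 in KYSE-450 alone.

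The widest normalized gap towards KYSE-450 and KYSE-520 was that of MIMAT0005927. It measured 3052.5 intensity units on the KYSE-450 array and 4224 on that of KYSE-520, against 123.5 on the KYSE-890 array and 132.0 on that of KYSE-960. KYSE-890 was not above background for it and KYSE-960 barely was, so the pair that was dim is measured on 1 of its 2 arrays. The gap was 9.43-fold after normalization and 23.1-fold in the deposited values. On its arrays it ranked 18 in KYSE-450 and 13 in KYSE-520 by brightness, against 102 in KYSE-890 and 90 in KYSE-960.

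MIMAT0005938 had the next widest gap and was above background on all 4 arrays. It measured 13477 on the KYSE-450 array and 24463 on that of KYSE-520, against 256 on the KYSE-890 array and 482.5 on that of KYSE-960. The pairs did not overlap, with gaps of 7.32-fold after normalization and 27.9-fold before. The normalized gap was 24.7-fold without KYSE-960, and 11.4-fold with the medians of the 75 features set equal in place of quantile normalization. Its mean was 13.3-fold higher in KYSE-450 and KYSE-520 after normalization and 51.7-fold higher before, the largest deposited fold among the 62. It was the third brightest feature (rank 3) of both KYSE-450 and KYSE-520, and had rank 53 on the KYSE-890 array and rank 21 on that of KYSE-960.

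Towards KYSE-890 and KYSE-960, MIMAT0005864 had the widest normalized gap among the 10 features higher there under both scalings. It measured 399 on the KYSE-450 array and 185 on that of KYSE-520, against 883 on the KYSE-890 array and 488 on that of KYSE-960, above background on all 4 arrays. The lower array of KYSE-890 and KYSE-960 stood 1.22-fold above the higher array of the other pair in the deposited values and 5.46-fold above it after normalization. The normalized value was 10.8-fold without KYSE-450, and 3.0-fold with the medians of the 75 features set equal. MIMAT0005582 measured 259 on the KYSE-450 array and 287 on that of KYSE-520, against 357.5 on the KYSE-890 array and 409 on that of KYSE-960. Its gap was 1.25-fold in the deposited values and 3.32-fold after normalization. For both features the gap was thus small as deposited and wider after normalization. The mean of MIMAT0005864 was 2.42-fold higher in KYSE-890 and KYSE-960 as deposited and 9.76-fold higher after normalization. For MIMAT0005582 the mean was 1.40-fold and 4.46-fold higher.

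Another 2 features were singled out with their values in view. MIMAT0000266 was the brightest of the 10 features higher in KYSE-890 and KYSE-960 under both scalings. It measured 9018.5 on the KYSE-450 array and 2253 on that of KYSE-520, against 12820.5 on the KYSE-890 array and 12517.5 on that of KYSE-960, and had rank 5 on the KYSE-450 array and rank 25 on that of KYSE-520, against rank 2 on both others. The gap was 1.39-fold in the deposited values and 2.53-fold after normalization, and KYSE-450 lay nearer to KYSE-890 and KYSE-960 than to KYSE-520. It supplied 3.16% and 0.645% of the summed intensity of KYSE-450 and KYSE-520, against 6.66% and 6.93% of that of KYSE-890 and KYSE-960. The other 9 of the 10 were dim, with medians of 248 on the KYSE-450 array and 185 on that of KYSE-520, against 298.5 on the KYSE-890 array and 261 on that of KYSE-960. Together they held 0.633% and 0.471% against 1.46% and 1.30% of the summed intensity. The choice of the 10 as higher in KYSE-890 and KYSE-960 set or favoured these directions.

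MIMAT0006766, the brightest feature on every array, measured 55201 on the KYSE-450 array and 57263.5 on that of KYSE-520, against 65347.5 on the KYSE-890 array and 65471.5 on that of KYSE-960. The values of KYSE-890 and KYSE-960 lie near the ceiling of a 16-bit scan at 65535, so they may understate the RNA. It is the 1 feature of the 11 higher in KYSE-890 and KYSE-960 as deposited that normalization does not separate, since a feature ranking first on each array is given the same value on all. It supplied 19.3% and 16.4% of the summed intensity of KYSE-450 and KYSE-520, against 33.9% and 36.2% in KYSE-890 and KYSE-960. With it left out of the sums, the 62 features held 40.5% and 47.9% in KYSE-450 and KYSE-520, against 8.54% and 9.94% in KYSE-890 and KYSE-960. That direction was again favoured by how the 62 were chosen.

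**Figure D3:**
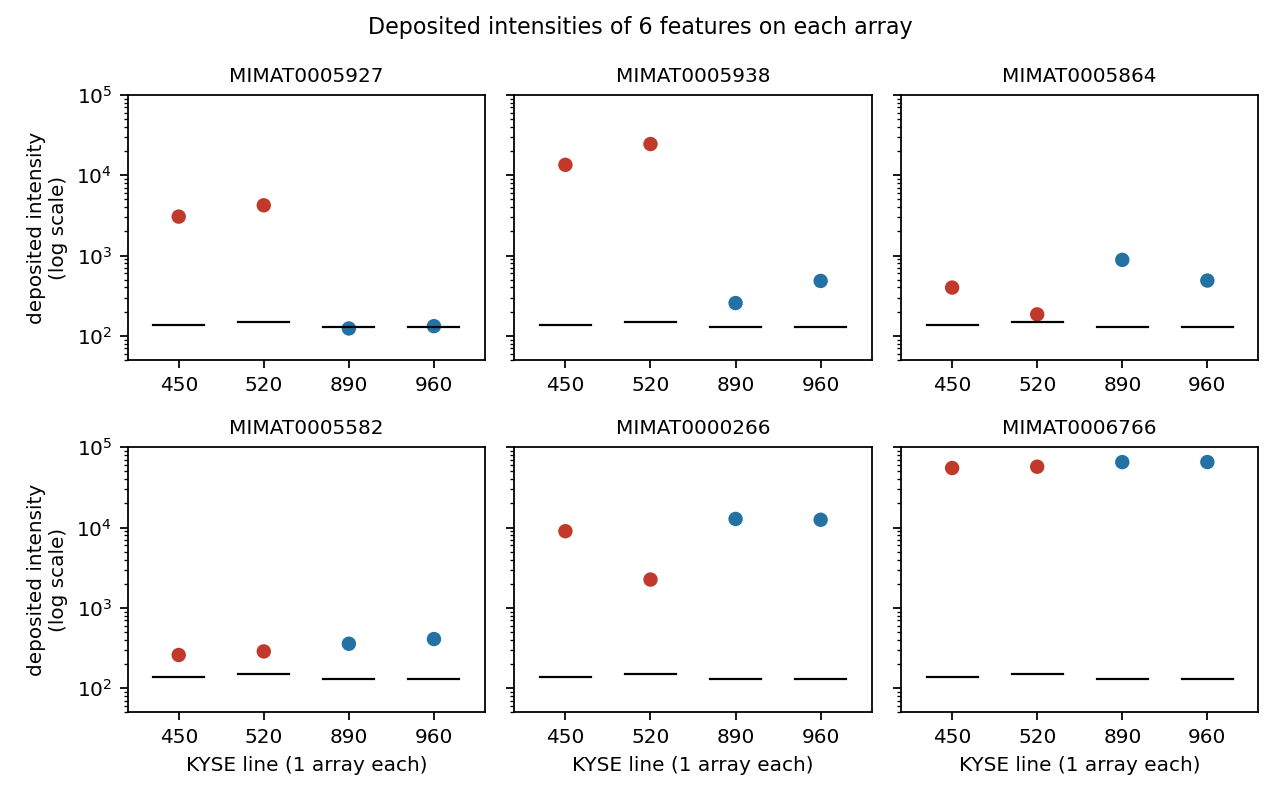
Deposited intensity (vertical axis, log scale) of the 6 features named in the text on the array of each line (horizontal axis), 1 point an array, with a horizontal tick at that array's background threshold. MIMAT0005927 and MIMAT0005938 stand far above in KYSE-450 and KYSE-520, while the 4 features brighter in KYSE-890 and KYSE-960 differ much less between the pairs.

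The features were also set out by accession number, which miRBase hands out in the order in which mature sequences are registered. The number ranges used here were set with the values in view. Of the 202 features numbered below 1000, 93 (46.0%) were kept, against 8.85% of 260 numbered from 1000 to below 4000, 10% of 240 from there to below 5000 and 14.9% of 154 numbered 5000 and above. After normalization 45 of the 93 early features (48.4%) were higher in KYSE-450 and KYSE-520, against 39.3% of all kept features, and 18 (19.4%) were higher in KYSE-890 and KYSE-960, against 32.5%. Among the 23 kept features numbered 5000 and above these shares were 21.7% (5 features) and 60.9% (14 features). The ranges between had 7 and 10 of 23 features and 7 and 11 of 24. In the deposited values no range had more features higher in KYSE-890 and KYSE-960 than in KYSE-450 and KYSE-520. There 8 of the 23 features numbered 5000 and above were higher in KYSE-450 and KYSE-520, against 7 higher in KYSE-890 and KYSE-960. Over all kept features these shares were 62.6% and 6.75%. Relative to them the latest range still leaned towards KYSE-890 and KYSE-960, with 7 of the 11 features higher there. The ranges between turned to 13 against 1 and 9 against 2, and the earliest range had 72 against 1.

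Under both scalings, 44 of the 62 features higher in KYSE-450 and KYSE-520 were numbered below 1000, as was 1 of the 10 higher in KYSE-890 and KYSE-960. That range holds 57.1% of all kept features, and 47.3% of its kept features were among the 62, against 38% of all kept. Of the 10, 6 were numbered 5000 and above, a range with 14.1% of all kept features. The median difference of the 23 latest features was -1.29 log2 after normalization and -0.17 log2 in the deposited values. For the 93 earliest it was 0.42 log2 after normalization and 1.56 log2 in the deposited values. The latest range also held both features with the widest gaps towards KYSE-450 and KYSE-520, so it was not of 1 direction.

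**Figure D4:**
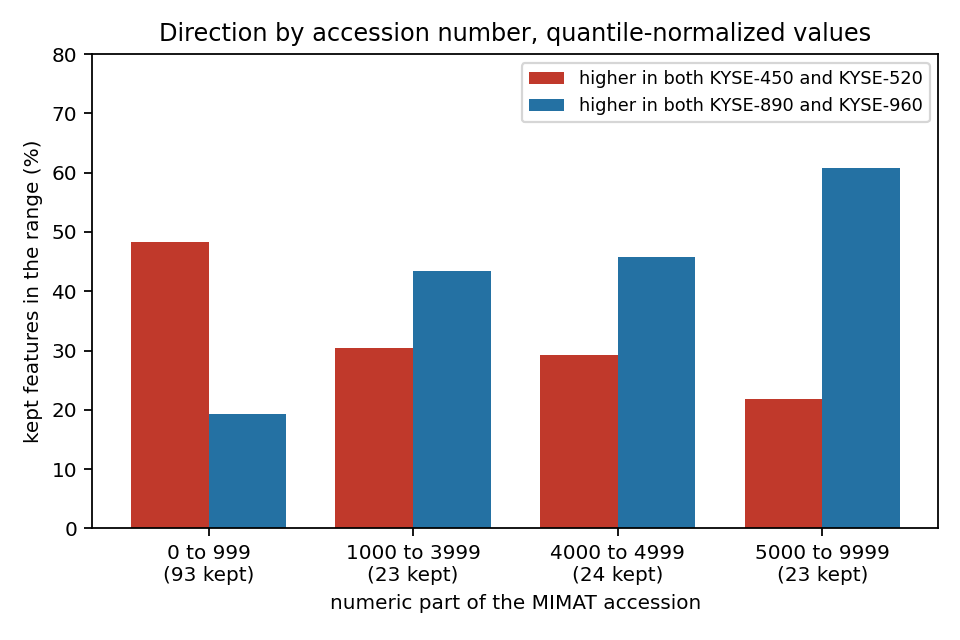
Share of kept features (vertical axis, %) that were higher in both KYSE-450 and KYSE-520 or in both KYSE-890 and KYSE-960 after quantile normalization, by range of the MIMAT number (horizontal axis, with the number of kept features). The shares are 48.4% and 19.4% below number 1000, and 21.7% and 60.9% from 5000, where the deposited values gave 8 and 7 features.

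The features were last set out by brightness. With the kept features split into 4 groups of 40 or 41 by their mean normalized value, 19, 15, 16 and 14 features were higher in KYSE-450 and KYSE-520 after normalization, from the dimmest to the brightest group. Higher in KYSE-890 and KYSE-960 were 5, 13, 21 and 14. In the deposited values these counts were 20, 27, 23 and 32 towards KYSE-450 and KYSE-520, against 2, 2, 4 and 3 towards KYSE-890 and KYSE-960. There the median difference was 0.63, 1.01, 0.92 and 1.90 log2 in the same order. After normalization it was 0.41, 0.20, -0.47 and 0 log2.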

How the data were processed

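Total RNA (500 ng a line) was labelled with Hy5, hybridized to a human microRNA oligonucleotide chip over 16 h (32 °C) and scanned on a ProScanArray, per the labels' protocols. Per the deposited table, each feature has 1 linear intensity an array. How spots were summarised, the background handled or the arrays scaled is not given in the sources used here. Arrays carry no read depth, and their number (1 a line) limits the precision.

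Quantile normalization (limma 3.58.1, R 4.3.3) was applied, values under the array median were raised to it, and log2 was taken. Deposited values, floored at the highest of the 4 array medians, were compared in the same way. Kept features were chosen on the deposited values. The 2 features per direction with the widest normalized gap, among those separated under both scalings, are named by accession. The counting was run on simulated arrays with as many raised features in each pair and no brightness difference between the pairs. Calls there used a gap smaller than 2-fold. The simulation therefore does not check the counts on arrays of unequal brightness, as these were. Alternatives were other scalings, floors, filters and leaving out each line. The pairs, lists and rules were chosen with earlier results of these data known. The 34 microRNA lists could not be matched to accessions and were not used.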

Additional observations from a re-analysis of the deposited data

How the results depend on the processing

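No paired analysis was possible because no line was measured on more than 1 array and no difference was tested. Of 34 alternative counts from other scalings, floors, filters or a wider gap, 25 stayed within 1.5 times the count reported, and of 16 from leaving out a line 15 did. Leaving out a line loosens the rule, as a pair is then held by 1 array, so these tallies do not measure precision. It also changes the set, to the 137 to 160 features above background on a remaining array. The cause of each change was not tested. The deposited values gave 102 features higher in KYSE-450 and KYSE-520, against 11 higher in KYSE-890 and KYSE-960, with 53 and 0 past a 2-fold gap, and a median difference of 0.81 log2. With the medians of the 75 features above background everywhere set equal, 48 were higher in KYSE-450 and KYSE-520, against 75 in KYSE-890 and KYSE-960, 16 and 20 of them by 2-fold, and the median difference over kept features turned to -0.13 log2. With the background threshold as floor, 42 were higher in KYSE-450 and KYSE-520, against 41 in KYSE-890 and KYSE-960, 14 and 22 of them by 2-fold. At 4-fold, which can only lower a count, 9 and 1 were left. Leaving out a line gave 56 to 76 features higher in KYSE-450 and KYSE-520, against 58 to 64 higher in KYSE-890 and KYSE-960, with 27 to 36 and 24 to 36 past a 2-fold gap (36 towards KYSE-890 without KYSE-960). The median difference ranged from -0.14 (without KYSE-520) to 0.33 log2. Both of the next checks were chosen after seeing the data. Leaving out a line gave 56 to 76 and 12 to 28 features separated under both scalings, and the background threshold as floor gave 42 and 7. The gaps of the 4 features named by rule kept their direction under every alternative run, between 0.29 and 4.80 log2. These features had been chosen for wide gaps and for separating under both scalings, so the deposited values could not turn them. The other floors and filters left their gaps unchanged, so this steadiness is no separate support. Dim signal limits the comparison, since 693 of the 856 features lay above background nowhere.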
